A study of Caenorhabditis elegans with 9 samples.

Results

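The *Caenorhabditis elegans* genes described here build the eggshell or start development of the fertilized egg. They were the listed genes *cbd-1*, *perm-2*, *perm-4*, *egg-1*, *egg-2*, *egg-3*, *mbk-2*, *chs-1*, *cpg-1* and *cpg-2*, matched by symbol to the gene identifiers of the count tables, and all 10 were found among 31106 genes. All 10 passed the filter on low counts, which kept 12141 genes. Polyadenylated RNA of whole 1-day-old adults grown at 20 °C was sequenced from 3 strains, in 3 libraries apiece. They carried *hrde-2(qe20)*, strain FD53, in a gene that the labels also call *enri-3*, *hrde-1(tm1200)*, strain USC661, or neither mutation, wild-type N2. HRDE-1 is a nuclear Argonaute protein that carries small RNAs in the germline, and HRDE-2 is a germ granule protein on which the choice of small RNAs that load into HRDE-1 depends. The comparison of each mutant with wild-type asks how mRNA levels differ when this pathway is impaired. Each genotype was 1 strain, so allele and strain background cannot be told apart, and each library came from about 50000 animals, in biological triplicates according to the labels.

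The eggshell is assembled in layers around the egg within minutes of sperm entry. An outer vitelline layer is already present around the oocyte, a chitin layer is made at the membrane by chitin synthase, and a layer of chondroitin proteoglycans is released from cortical granules. The same event starts egg activation, in which a complex of pseudophosphatases at the oocyte cortex releases the kinase MBK-2, so that maternal proteins are modified and degraded. In the oocyte these mRNAs come from the germline and are stored before the eggshell exists. RNA of whole animals does not show in which tissue each mRNA was made.

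The counts assigned to genes per library lay between 5801326 and 11884233, of which ribosomal RNA genes took between 19.4% and 31.4%. The targeted genes had lower levels in their own mutants. *hrde-2* lay between 14.3 and 19.3 counts per 1000000 (CPM, on a library size scaled by TMM) in *hrde-2* mutants, against 22.9 to 52.1 CPM in the other 6 libraries, and *hrde-1* lay between 108 and 144 CPM in *hrde-1* mutants, against 200.4 to 445 CPM in the other libraries. Wild-type replicate 1 stood apart from the other wild-type libraries. The summed level of 12 oocyte markers was 1740 CPM in that library, against 4037 and 3597 CPM in wild-type replicates 2 and 3, while 18 sperm markers summed to 162 CPM, against 47.8 and 38.2 CPM. Sperm markers also differed between genotypes, with sums of 510.1 to 579 CPM in *hrde-2* mutants, 145 to 213 CPM in *hrde-1* mutants and 38.2 to 162 CPM in wild-type. Markers of early embryonic transcription were close to 0, with *med-1* and *hlh-27* at 0 in every library, no count above 9 for any of the 10 markers and sums of at most 2.57 CPM.

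All 10 genes were protein-coding and well covered, with between 381 and 19229 counts per gene and library. Compared per length, as CPM per kb of exon averaged over the 9 libraries, *perm-2* had the highest level (781 CPM per kb), followed by *cpg-2* (703 CPM per kb), *perm-4* (559.9 CPM per kb) and *cpg-1* (541 CPM per kb). Genes for structural proteins held the upper end of the order. *cbd-1* averaged 336 CPM per kb and *egg-1* averaged 185 CPM per kb. The lower end held *egg-2* (88.9 CPM per kb), *egg-3* (67.6 CPM per kb), *chs-1* (49.8 CPM per kb) and the kinase gene *mbk-2* (30.4 CPM per kb). The order among the 4 highest was not fixed. *perm-2* exceeded *cpg-2* in 5 of 9 libraries, *cpg-2* exceeded *perm-4* in 7, and *perm-4* exceeded *cpg-1* in 5. Below them each gene exceeded the next one in 8 or 9 of the 9 libraries. Even *mbk-2* stood above 73.3% of the genes tested by this measure, and *perm-2* above 98.8%.

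**Figure D1:**
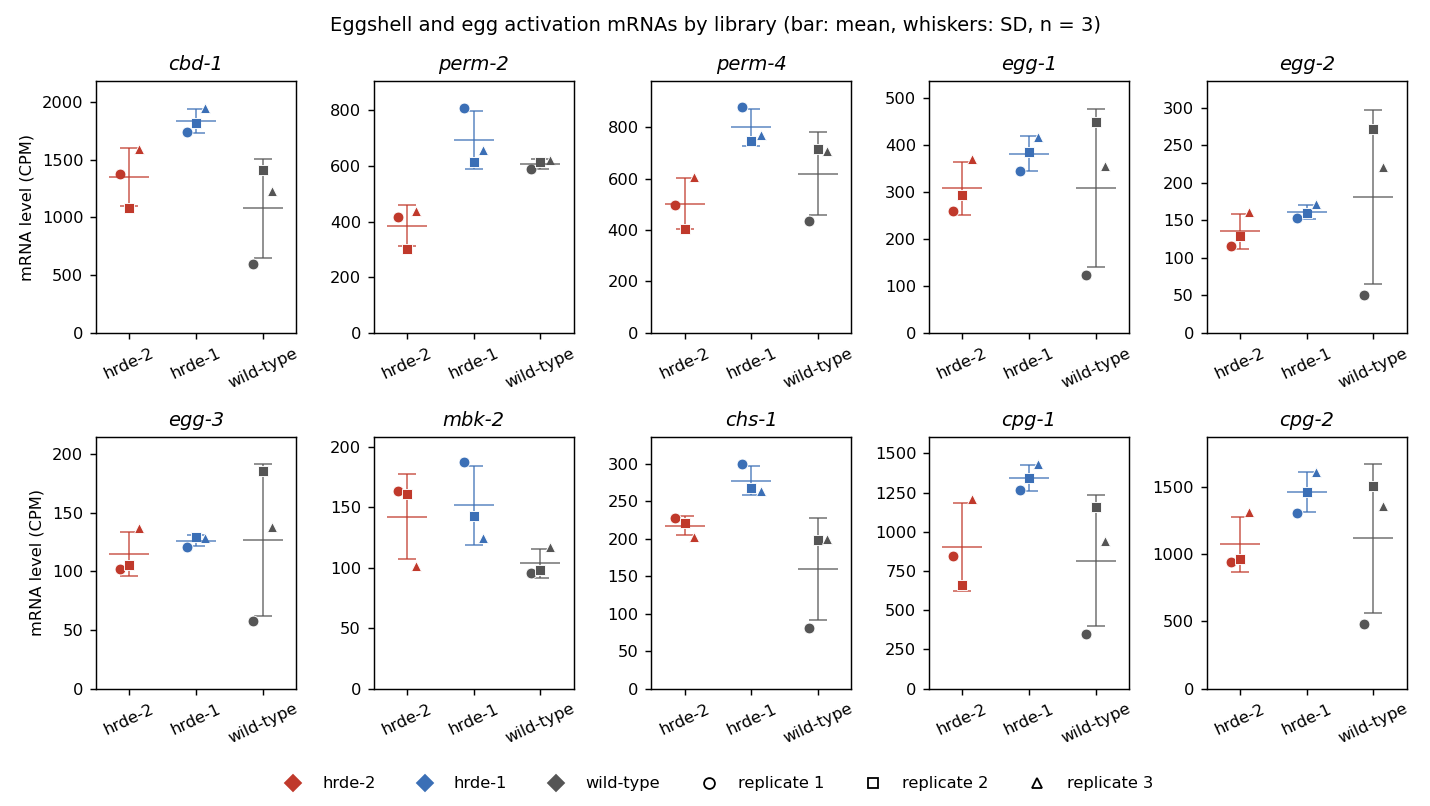
Level of each of the 10 mRNAs in CPM (vertical axis, linear and starting at 0) in *hrde-2* mutants, *hrde-1* mutants and wild-type, with the replicate number shown by the symbol, the mean as a bar and the SD as whiskers (n = 3). Wild-type replicate 1 is the lowest of all 9 libraries for 8 genes, whereas *perm-2* is lower in all 3 *hrde-2* libraries than in every other library.

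The spread among wild-type libraries was wide for most of these genes. In wild-type, 7 of the 10 genes differed by at least 2-fold between the lowest and the highest library, whereas none did among the *hrde-2* or the *hrde-1* libraries, where the widest ratios were 1.83 for *cpg-1* and 1.51 for *mbk-2*. Wild-type replicate 1 was the lowest of all 9 libraries for every gene except *perm-4*, for which 1 library was lower, and *perm-2*, for which 3 libraries were lower. Its level relative to the mean of wild-type replicates 2 and 3 was 0.203 for *egg-2*, 0.305 for *egg-1*, 0.331 for *cpg-1* and 0.337 for *cpg-2*, but 0.888 for *mbk-2* and 0.953 for *perm-2*. In RNA of whole animals, fewer oocytes and less mRNA per oocyte cannot be told apart.

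*perm-2* encodes a protein of the vitelline layer and lies on chromosome IV, 1126790 to 1128848, plus strand (WBcel235). Its level was 417, 300.3 and 438 CPM in *hrde-2* mutants, 809, 612 and 657 CPM in *hrde-1* mutants and 587, 613 and 619.7 CPM in wild-type. The *hrde-2* libraries lay below all others, and the *hrde-1* and wild-type libraries overlapped. By the quasi-likelihood test of edgeR, adjusted over all genes tested, *perm-2* fell in *hrde-2* mutants by 0.66 ± 0.19 on the log2 scale against wild-type (SE, adjusted p = 0.0449). Against *hrde-1* mutants it fell by 0.85 ± 0.19 on the log2 scale (SE, adjusted p = 0.0275). The means were 385 ± 74.4 CPM in *hrde-2* mutants, 693 ± 103 CPM in *hrde-1* mutants and 607 ± 17.1 CPM in wild-type (SD, n = 3 each), and *hrde-1* mutants differed from wild-type by a log2 fold change of 0.19 (adjusted p = 0.617, SE 0.19). *perm-2* was the only one of the 10 genes to pass the test with all 9 libraries, and it passed close to the threshold. Against wild-type the call was lost when any 1 of the 8 libraries other than wild-type replicate 1 was left out (adjusted p up to 0.201), and against *hrde-1* mutants when any 1 of the 6 mutant libraries was left out (adjusted p up to 0.153). Among 8 other settings of scaling, filter, test or fit, it was called in 3 against wild-type and in 8 against *hrde-1* mutants. With each library left out in turn, its log2 fold change stayed between -0.76 and -0.50 against wild-type and between -0.95 and -0.68 against *hrde-1* mutants.

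*perm-4*, which encodes another vitelline layer protein, is the neighbour of *perm-2* and is read from the opposite strand (chromosome IV, 1121457 to 1125107, minus strand). The annotated genes start 1682 bases apart, facing away from each other. The level of *perm-4* was 498, 404 and 605 CPM in *hrde-2* mutants, 879, 746 and 769.6 CPM in *hrde-1* mutants and 434, 716 and 707 CPM in wild-type. The *hrde-2* libraries lay below the *hrde-1* libraries and overlapped with wild-type, because wild-type replicate 1 was low. The log2 fold change was -0.67 (adjusted p = 0.108, SE 0.23) against *hrde-1* mutants and -0.30 (adjusted p = 0.413, SE 0.22) against wild-type, with edgeR, and neither passed. The *hrde-1* libraries lay above wild-type without overlap, with a log2 fold change of 0.37 (adjusted p = 0.394, SE 0.22). Per length, *perm-2* exceeded *perm-4* in every library, by 1.15 to 1.33 times in *hrde-2* mutants, by 1.31 to 1.46 times in *hrde-1* mutants, and by 1.36 and 1.39 times in wild-type replicates 2 and 3, with 2.15 times in wild-type replicate 1.

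*cbd-1* encodes a large chitin-binding protein of the vitelline layer, to which PERM-2 and PERM-4 attach (chromosome IV, 11372991 to 11377627, plus strand). Its level was 1373, 1083 and 1589 CPM in *hrde-2* mutants, 1734, 1819 and 1943 CPM in *hrde-1* mutants and 594, 1411 and 1231 CPM in wild-type. All 3 *hrde-1* libraries lay above the other 6, while *hrde-2* and wild-type libraries overlapped. The edgeR log2 fold change of *hrde-1* mutants against wild-type was 0.76 (adjusted p = 0.180, SE 0.27), with a 95% interval from 0.17 to 1.35, and did not pass after adjustment. It was 0.32 (adjusted p = 0.475, SE 0.27) in *hrde-2* mutants against wild-type and -0.44 (adjusted p = 0.415, SE 0.27) in *hrde-2* against *hrde-1* mutants. Within the vitelline layer genes, the *perm-2* level per length was 1.78, 1.63 and 1.62 times that of *cbd-1* in *hrde-2* mutants, 2.74, 1.98 and 1.99 times in *hrde-1* mutants, and 5.81, 2.55 and 2.96 times in wild-type. The *hrde-2* ratios lay below those of all other libraries, a description of the same counts as above.

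*egg-1* (chromosome III, 5728180 to 5730159, plus strand) and *egg-2* (chromosome III, 7058516 to 7060597, minus strand) encode related transmembrane proteins of the oocyte surface that act redundantly in sperm entry and hold EGG-3 and chitin synthase at the cortex. *egg-1* had 259, 294 and 369 CPM in *hrde-2* mutants, 344, 384 and 417 CPM in *hrde-1* mutants and 123, 448 and 356 CPM in wild-type. *egg-2* had 116, 129 and 161 CPM in *hrde-2* mutants, 153, 159.9 and 172 CPM in *hrde-1* mutants and 50.0, 272 and 221 CPM in wild-type. Wild-type replicate 1 was the lowest library and wild-type replicate 2 the highest for both genes, so that the mutant libraries lay inside the wild-type range. For *egg-1* the edgeR log2 fold change was -0.01 (adjusted p = 0.991, SE 0.35) in *hrde-2* mutants and 0.30 (adjusted p = 0.665, SE 0.35) in *hrde-1* mutants against wild-type, and the 95% intervals reached from -0.76 to 0.75 and from -0.45 to 1.06. For *egg-2* it was -0.42 (adjusted p = 0.557, SE 0.42) in *hrde-2* mutants and -0.17 (adjusted p = 0.857, SE 0.42) in *hrde-1* mutants. *hrde-2* against *hrde-1* mutants gave -0.31 for *egg-1* and -0.26 for *egg-2*, with edgeR adjusted p-values of 0.700 and 0.814.

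The balance between the paired receptors differed between libraries. The *egg-1* level per length was 2.22, 2.28 and 2.29 times that of *egg-2* in *hrde-2* mutants, 2.24, 2.40 and 2.42 times in *hrde-1* mutants, and 2.45, 1.65 and 1.60 times in wild-type. The 6 mutant libraries were within a narrow range, above wild-type replicates 2 and 3 and below wild-type replicate 1. No test was made of this ratio. Exons of *egg-1* and *egg-2* overlapped genes on the other strand by 42 and 11 bases, and counting did not use strand. Reads that map to several places were not counted, so any stretch identical in both genes would lose reads. The sequence identity of the 2 genes was not computed.

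*egg-3* encodes an inactive tyrosine phosphatase that tethers MBK-2 and chitin synthase to the oocyte cortex (chromosome II, 10882408 to 10884462, minus strand). Its level was 102, 105 and 137 CPM in *hrde-2* mutants, 121, 129 and 128 CPM in *hrde-1* mutants and 57.3, 185 and 138 CPM in wild-type. The mutant libraries lay within the wild-type range, and the 3 *hrde-1* libraries differed by only 1.07 times. The edgeR log2 fold changes were -0.15 (adjusted p = 0.809, SE 0.32) in *hrde-2* mutants against wild-type, -0.01 (adjusted p = 0.989, SE 0.32) in *hrde-1* mutants against wild-type and -0.13 (adjusted p = 0.881, SE 0.32) between the mutants. The 95% intervals against wild-type, from -0.84 to 0.55 and from -0.70 to 0.68, leave differences in either direction possible.

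*mbk-2* encodes the DYRK-family kinase that marks maternal proteins for degradation when the egg is activated (chromosome IV, 13009116 to 13035955, plus strand). Its level was 163, 161 and 102 CPM in *hrde-2* mutants, 187, 143 and 124 CPM in *hrde-1* mutants and 95.3, 97.8 and 117 CPM in wild-type. *mbk-2* had another pattern than most of the other genes, since wild-type replicate 1 was close to the other wild-type libraries. The *hrde-1* libraries lay above wild-type without overlap, whereas *hrde-2* replicate 3 lay within the wild-type range. The edgeR log2 fold change was 0.46 (adjusted p = 0.214, SE 0.23) in *hrde-2* mutants and 0.55 (adjusted p = 0.231, SE 0.23) in *hrde-1* mutants against wild-type, and neither passed. Between the mutants it was -0.09 (adjusted p = 0.882, SE 0.23).

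*chs-1*, the chitin synthase of the eggshell (chromosome I, 7554855 to 7559916, plus strand), had 228, 221 and 203 CPM in *hrde-2* mutants, 299.7, 268 and 264 CPM in *hrde-1* mutants and 81.3, 198 and 199.9 CPM in wild-type. All mutant libraries lay above all wild-type libraries, although the lowest *hrde-2* library and the highest wild-type library were 203 and 199.9 CPM. The edgeR log2 fold change was 0.44 (adjusted p = 0.324, SE 0.28) in *hrde-2* mutants and 0.80 (adjusted p = 0.176, SE 0.28) in *hrde-1* mutants against wild-type, with 95% intervals from -0.16 to 1.05 and from 0.19 to 1.40. The *hrde-2* libraries lay below the *hrde-1* libraries, with a log2 fold change of -0.35 (adjusted p = 0.552, SE 0.28). None of these passed after adjustment.

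*cpg-1* (chromosome III, 4489359 to 4491392, plus strand) and *cpg-2* (chromosome III, 7102086 to 7103990, minus strand) encode chitin-binding chondroitin proteoglycans of the inner eggshell, which act redundantly. *cpg-1* had 845, 659 and 1208 CPM in *hrde-2* mutants, 1265, 1339.9 and 1429 CPM in *hrde-1* mutants and 347, 1155 and 942 CPM in wild-type. *cpg-2* had 943, 965 and 1309 CPM in *hrde-2* mutants, 1307, 1458 and 1606 CPM in *hrde-1* mutants and 482, 1507 and 1355 CPM in wild-type. For *cpg-1* the *hrde-1* libraries lay above all others, while for *cpg-2* all 3 genotypes overlapped. The edgeR log2 fold change of *cpg-1* was 0.15 (adjusted p = 0.819, SE 0.35) in *hrde-2* mutants and 0.72 (adjusted p = 0.296, SE 0.35) in *hrde-1* mutants against wild-type. That of *cpg-2* was -0.06 (adjusted p = 0.931, SE 0.33) in *hrde-2* mutants and 0.39 (adjusted p = 0.544, SE 0.33) in *hrde-1* mutants. Against *hrde-1* mutants, *hrde-2* mutants had log2 fold changes of -0.57 for *cpg-1* and -0.44 for *cpg-2* (edgeR adjusted p = 0.411 and 0.515).

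**Figure D2:**
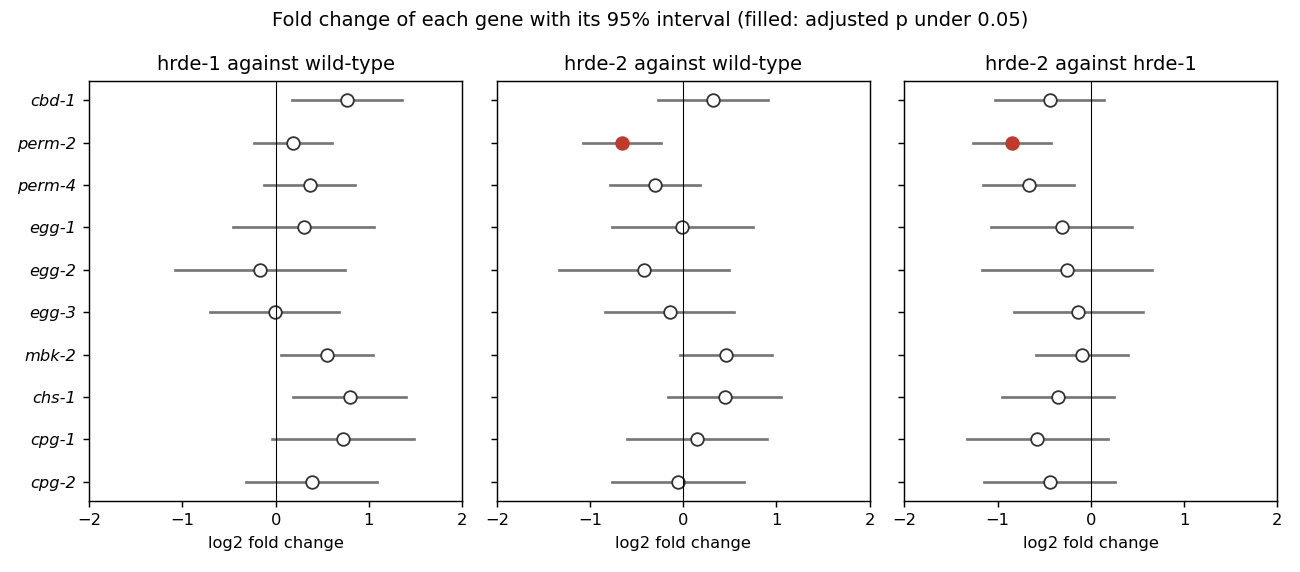
Log2 fold change of each gene (horizontal axis) with its 95% interval from the edgeR fit, in *hrde-1* against wild-type, *hrde-2* against wild-type and *hrde-2* against *hrde-1*, with filled points for an adjusted p under 0.05. *perm-2* is the only gene with filled points, at -0.66 and -0.85 in the comparisons of *hrde-2* mutants, and all 10 points lie below 0 in *hrde-2* against *hrde-1*.

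Over the 10 genes, edgeR called 1 lower and 0 higher in *hrde-2* mutants against wild-type, where 11.8% of all genes tested were called (7.57% higher and 4.25% lower). The Wald test of DESeq2 gave the same counts, where it called 1247 genes higher and 693 lower among 12141. By edgeR 1 gene had an unadjusted p under 0.05, beside 27.8% of all genes. In *hrde-1* mutants against wild-type 0 of 10 were called by edgeR and 0 by DESeq2, where edgeR called 1.55% of all genes (1.24% higher and 0.313% lower). There *cbd-1*, *chs-1* and *mbk-2* had an unadjusted p under 0.05, all higher, so 3 of 10 beside 18.2% of all genes. In *hrde-2* against *hrde-1* mutants edgeR and DESeq2 each called *perm-2* alone, beside 5.67% of all genes by edgeR (3.22% higher and 2.45% lower), and *perm-2* and *perm-4* had an unadjusted p under 0.05, beside 20% of all genes. With all 9 libraries the number of called genes in each comparison was within 1 gene of what the background share gives for 10 genes.

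The median log2 fold change of the 10 genes was -0.03 in *hrde-2* mutants against wild-type, beside -0.10 for all genes tested, and 0.38 in *hrde-1* mutants against wild-type, beside -0.03. In *hrde-2* against *hrde-1* mutants it was -0.40, beside -0.01, with a log2 fold change below 0 for all 10 genes. The 12 oocyte markers had medians of 0.19, 0.44 and -0.29 in these comparisons, in the same order. Of these markers, 11 lay above 0 in *hrde-1* mutants against wild-type and 11 lay at or below 0 in *hrde-2* against *hrde-1* mutants. The shifts in these 2 comparisons were therefore not particular to the 10 genes. Without wild-type replicate 1 the medians of the 10 genes were -0.32 beside 0.04, 0.19 beside 0.09 and -0.35 beside 0.05, in the same order of comparisons. The 3 comparisons share libraries, and most of the 10 mRNAs varied together across the 9 libraries, so the number of genes with one sign does not count as 10 separate results. The libraries of the genotypes did not overlap for 2 of 10 genes in *hrde-2* mutants against wild-type (*perm-2* lower and *chs-1* higher), where this held for 32.2% of all genes. They did not overlap for 5 of 10 in *hrde-1* mutants against wild-type (*perm-4*, *cpg-1*, *cbd-1*, *chs-1* and *mbk-2*, all higher in *hrde-1*), beside 22.8%. In *hrde-2* against *hrde-1* mutants this held for 5 of 10 (*perm-2*, *perm-4*, *cpg-1*, *cbd-1* and *chs-1*, all lower in *hrde-2*), beside 32.5%. Of the 12 oocyte markers, 1, 5 and 5 did not overlap in these comparisons, in the same order.

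The labels give replicate numbers but state no pairing, so a possible pairing of the mutant libraries was looked for in these same counts. Same-numbered *hrde-2* and *hrde-1* libraries correlated between 0.11 and 0.25 in their deviations from the genotype means. Differently numbered *hrde-2* and wild-type libraries reached -0.40 and 0.39, so values of this size do not establish a pairing. In a fit of the 6 mutant libraries with the replicate number as a block, added after the data were seen, edgeR called 5 of the 10 genes lower in *hrde-2* against *hrde-1* mutants. They were *perm-2* at -0.86 ± 0.13 on the log2 scale (SE, adjusted p = 0.00125), *perm-4* at -0.68 ± 0.14 (SE, adjusted p = 0.00586), *cpg-1* at -0.62 ± 0.15 (SE, adjusted p = 0.0165), *cpg-2* at -0.46 ± 0.12 (SE, adjusted p = 0.0225) and *cbd-1* at -0.46 ± 0.13 (SE, adjusted p = 0.0297). That fit called 16.6% of 11801 genes. It also called 3 of 12 oocyte markers lower (*rme-2*, *puf-5* and *lin-41*), 7 of 9 soma markers lower and 14 sperm markers higher. Most of the called soma markers were yolk protein genes. Without the block, the same 6 libraries gave calls for *perm-2* and *perm-4* only, beside 11.8% of all genes. With the block over all 9 libraries, *perm-2* alone was called.

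The summed level of the 10 mRNAs was 4944, 4321 and 6120 CPM in *hrde-2* mutants, 7099, 7059 and 7511 CPM in *hrde-1* mutants and 2852, 6604 and 5887 CPM in wild-type. The *hrde-1* libraries lay above all others, and the *hrde-2* libraries lay within the range of wild-type. Between *hrde-2* and *hrde-1* mutants, and between *hrde-1* mutants and wild-type, the exact two-sided permutation test gave p = 0.1, the smallest value that 3 against 3 libraries allow. Between *hrde-2* mutants and wild-type the same exact test gave p = 1. The 12 oocyte markers summed to 3232 to 4248 CPM in *hrde-2* mutants, 4004 to 4674 CPM in *hrde-1* mutants and 1740 to 4037 CPM in wild-type. With all 9 libraries and no block, none of these markers was called in any comparison by edgeR or by DESeq2. Without wild-type replicate 1, edgeR called *nos-2* lower in each mutant against wild-type and *lin-41* lower in *hrde-2* against *hrde-1* mutants. At an edgeR unadjusted p under 0.05 with all 9 libraries stood 1 higher and 1 lower in *hrde-2* mutants against wild-type, beside 27.8% of all genes. There were 3 higher in *hrde-1* mutants against wild-type, beside 18.2%, and 0 between the mutants, beside 20%.

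**Figure D3:**
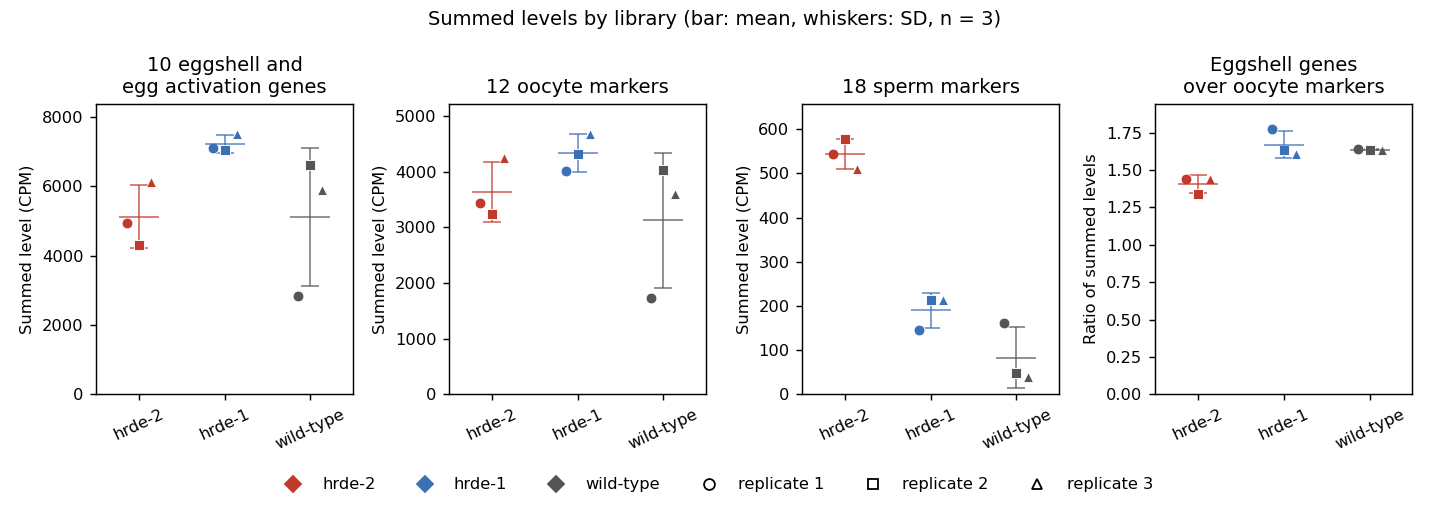
Summed level in CPM of the 10 eggshell and egg activation genes, of 12 oocyte markers and of 18 sperm markers, and the ratio of the first sum to the second, in each library of *hrde-2* mutants, *hrde-1* mutants and wild-type (bars and whiskers: mean and SD, n = 3, axes from 0). The ratio is 1.64 in each wild-type library although the sums differ 2.32-fold between wild-type replicates 1 and 2, and it is lower in the 3 *hrde-2* libraries (1.34 to 1.44).

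Set against the oocyte markers of the same library, the summed level of the 10 genes was even in wild-type. The ratio of the sums was 1.44, 1.34 and 1.44 in *hrde-2* mutants, 1.77, 1.63 and 1.61 in *hrde-1* mutants and 1.64, 1.64 and 1.64 in wild-type. Wild-type replicate 1 therefore did not stand apart in this ratio, and the 3 *hrde-2* libraries lay below the other 6. The mean sum of the 10 genes was 5128 CPM in *hrde-2* mutants and 5114.5 CPM in wild-type. That of the markers was 3639 and 3125 CPM, with wild-type replicate 1 low in both sums. *gld-1*, the most abundant marker, averaged 692 CPM in *hrde-2* mutants, 575 CPM in *hrde-1* mutants and 446 CPM in wild-type, so the ratio depends on the markers chosen. The even ratio of the sums did not hold for each gene. Relative to the mean log2 level of the oocyte markers, a scale chosen after the data were seen, *perm-2* was at 2.32 in wild-type replicate 1, against 1.10 and 1.27 in wild-type replicates 2 and 3, whereas *egg-2* was at -1.23, against -0.07 and -0.21.

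On this scale *perm-2* was at 0.87, 0.51 and 0.67 in *hrde-2* mutants, 1.58, 1.08 and 1.09 in *hrde-1* mutants and 2.32, 1.10 and 1.27 in wild-type. *perm-4* was at 1.13, 0.93 and 1.14 in *hrde-2* mutants, 1.70, 1.36 and 1.32 in *hrde-1* mutants and 1.89, 1.33 and 1.46 in wild-type. For both genes the 3 *hrde-2* libraries lay below the other 6. *cbd-1*, encoding their partner, was at 2.59, 2.36 and 2.53 in *hrde-2* mutants, 2.68, 2.65 and 2.65 in *hrde-1* mutants and 2.34, 2.31 and 2.26 in wild-type, so that both mutants lay above wild-type without overlap. *chs-1* and *cpg-1* were above wild-type without overlap in *hrde-1* mutants, and *egg-3* was below. In all, the libraries did not overlap for 3 of 10 genes in *hrde-2* mutants against wild-type (25.6% of all genes on this scale), for 4 of 10 in *hrde-1* mutants against wild-type (30.9%) and for 6 of 10 in *hrde-2* against *hrde-1* mutants (39.2%). No test was made on this scale.

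**Figure D4:**
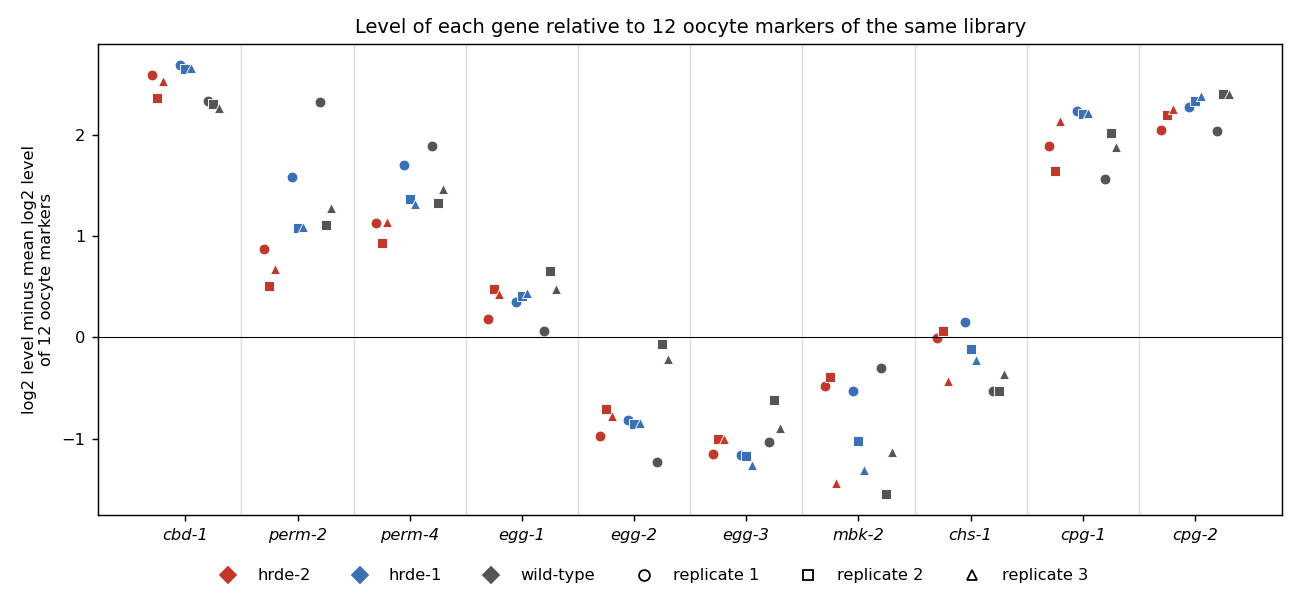
Log2 level of each gene minus the mean log2 level of 12 oocyte markers in the same library (vertical axis), by genotype (colour) and replicate (symbol). *perm-2* and *perm-4* are lower in the 3 *hrde-2* libraries than in the other 6, and wild-type replicate 1 stands apart upwards for *perm-2* (2.32) and downwards for *egg-2* (-1.23).

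The fits were sensitive to wild-type replicate 1. Without it, edgeR called *egg-2* lower in *hrde-2* mutants against wild-type, at -0.78 ± 0.17 on the log2 scale (SE, adjusted p = 0.00508), and lower in *hrde-1* mutants against wild-type, at -0.58 ± 0.17 (SE, adjusted p = 0.0369). *chs-1* was called higher in *hrde-1* mutants against wild-type, at 0.51 ± 0.15 (SE, adjusted p = 0.0377), a smaller fold change than with all libraries but with a smaller error. *perm-4* was called lower in *hrde-2* against *hrde-1* mutants, at -0.62 ± 0.17 (SE, adjusted p = 0.0285). *perm-2* remained called in both comparisons of *hrde-2* mutants. More genes of all kinds were called in that fit, which tested 12533 genes: 22.3% in *hrde-2* mutants against wild-type, beside 2 of the 10, 13.2% in *hrde-1* mutants against wild-type, beside 2 of the 10, and 12.9% in *hrde-2* against *hrde-1* mutants, beside 2 of the 10. Leaving out any other single library called none of *egg-2*, *chs-1* and *perm-4* in these comparisons.

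**Figure D5:**
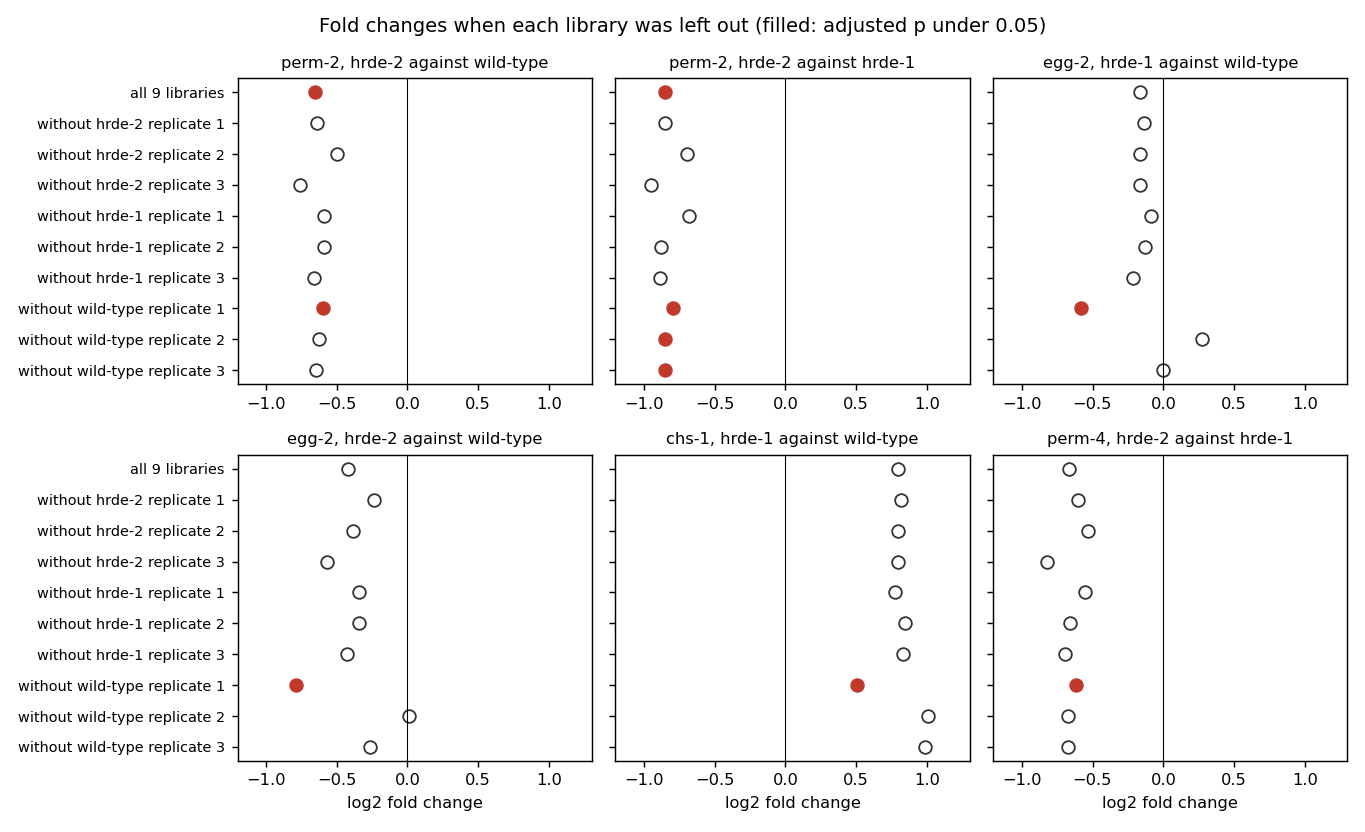
Log2 fold change (horizontal axis) of *perm-2*, *egg-2*, *chs-1* and *perm-4* in the comparisons named above each panel, with all 9 libraries and with each library left out in turn, filled where the edgeR adjusted p was under 0.05. *egg-2*, *chs-1* and *perm-4* are filled only without wild-type replicate 1, and *perm-2* keeps its sign throughout.

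Other genes of the eggshell and of egg activation showed the same dependence. Of 6 other eggshell genes, 13 partners and substrates of the activation kinase and 12 genes for chondroitin and its sugar precursors, edgeR called 0 in all 3 comparisons with all 9 libraries. In the block fit of the mutant libraries, *cpg-3* and *gfat-1* were called lower in *hrde-2* against *hrde-1* mutants. DESeq2 called 0 of the first 2 lists and *mig-22* and *sqv-5*, encoding a chondroitin polymerizing factor and a chondroitin synthase, higher in *hrde-2* mutants against wild-type. In that comparison DESeq2 called 1247 genes higher and 693 lower among 12141, so 2 of 12 is not read as a result about this list. At an edgeR unadjusted p under 0.05, 2 of 6 other eggshell genes were lower in *hrde-2* mutants against wild-type. There 1 of 13 activation genes and 3 of 12 chondroitin genes were higher, beside 27.8% of all genes in either direction. In *hrde-1* mutants against wild-type, 1 other eggshell gene and 2 chondroitin genes were higher at that level, beside 18.2% of all genes. Between the mutants there were 0, beside 20%. The median log2 fold changes of the 3 lists were 0.04, 0.11 and -0.13 in *hrde-2* mutants against wild-type, -0.04, 0.37 and -0.18 in *hrde-1* mutants against wild-type, and -0.22, -0.13 and -0.05 in *hrde-2* against *hrde-1* mutants. The most abundant of the other eggshell genes, *cpg-3*, which encodes a further chondroitin proteoglycan, averaged 257 ± 41.8 CPM in *hrde-2* mutants, 376 ± 50.5 CPM in *hrde-1* mutants and 521 ± 291 CPM in wild-type (SD, n = 3 each). In *hrde-2* mutants against wild-type, edgeR gave it a log2 fold change of -1.02 (adjusted p = 0.0927, SE 0.37). Also among the most abundant of these lists, *egg-6* had a log2 fold change of 0.31 and the maternal RNA-binding protein gene *oma-2* one of 0.11 in that comparison, and *rab-11.1*, encoding a GTPase of membrane traffic, one of -0.12. The sugar precursor genes *gfat-2* and *gfat-1* had 0.27 and 0.20. None of these passed the test.

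Without wild-type replicate 1, *cpg-3* and *gna-2*, the second encoding an enzyme that makes the chitin precursor, were called lower in *hrde-2* mutants against wild-type (log2 fold changes of -1.34 and -0.90, edgeR adjusted p = 0.000177 and 0.0018). Both were also called lower in *hrde-1* mutants against wild-type, at -0.84 and -0.59 (edgeR adjusted p = 0.011 and 0.0305). Of the chondroitin and sugar precursor genes, 2 were then called higher and 4 lower in *hrde-2* mutants and 1 higher and 3 lower in *hrde-1* mutants, and *cdk-1* was called lower in both. As given above, that fit called 22.3% and 13.2% of all genes in these comparisons.

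Markers of other cells moved with genotype beside these results. Of 18 sperm markers 15 could be tested, and edgeR called 14 higher in *hrde-2* mutants and 2 higher in *hrde-1* mutants against wild-type, with *spe-41* at 2.80 and 2.18 on the log2 scale and *gsp-3* at 3.11 and 1.77. *gsp-4* and *msp-38* were at 2.71 and 3.03 in *hrde-2* mutants. The count in *hrde-1* mutants was 7 by DESeq2 and 15 by edgeR without wild-type replicate 1, and that in *hrde-2* mutants was 15 by either. Of 9 markers of adult soma, the yolk protein genes *vit-2* and *vit-6* fell in *hrde-2* mutants against wild-type, by 0.90 and 0.82 on the log2 scale (edgeR adjusted p = 0.0333 and 0.0377). DESeq2 called 4 of these markers lower there, and edgeR called 0 when wild-type replicate 1 was left out. The summed soma markers lay between 29248 and 45147 CPM in *hrde-2* mutants, between 56929 and 95932 CPM in *hrde-1* mutants and between 50095 and 68545 CPM in wild-type. Most of these markers are yolk protein genes. *vit-6* and *vit-2* averaged 20165 and 19346 CPM over the 9 libraries and made up most of the sum, so it mainly describes yolk protein genes. The part of these shifts in the levels of the eggshell genes was not tested.

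Across the 9 libraries, 8 of the 10 genes varied together. Pearson's r between log2 levels was between 0.60 and 0.99 for the 28 pairs that leave out *perm-2* and *mbk-2*, and between -0.10 and 0.80 for the 17 pairs that hold at least 1 of them. Correlated with the mean profile of all 10 genes, *cpg-1* had the highest value (r = 0.97) and *mbk-2* and *perm-2* the lowest (r = 0.32 and 0.40). These are descriptions over 9 libraries that share genotypes, with wild-type replicate 1 as an extreme point. The genes outside the list with the profile most like the mean were *dab-1*, *ubq-1*, *pos-1*, *lst-1*, *lip-1* and *T24D1.3*, with r between 0.976 and 0.983. *pos-1*, which encodes a maternal RNA-binding protein and is also one of the oocyte markers, had 328, 333 and 405 CPM in *hrde-2* mutants, 436, 440.1 and 486 CPM in *hrde-1* mutants and 184, 469 and 418 CPM in wild-type.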

How the data were processed

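The authors trimmed single-end reads with Trimmomatic 0.39, mapped these to the WormBase WS258 genome with HISAT2 2.2.1 and used featureCounts 2.0.1 for counting. The deposited values are raw counts per gene over exons. According to the file headers, counting ignored strand, and neither multi-mapping reads nor reads shared by several genes entered, so exon bases shared with another gene lose reads.

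A filter on low counts (filterByExpr) was applied, and the 9 libraries were scaled with TMM and fitted with genotype as the only term by the quasi-likelihood test of edgeR 4.0.16 in R 4.3.3. Benjamini-Hochberg adjustment ran over the 12141 genes left, with calls at an adjusted p under 0.05. Standard errors came from the F statistic, and log2 CPM used a prior count of 2. The biological coefficient of variation was 27.0%. P-values measure the spread between these cultures. The script was tested on simulated counts. Deviations from the genotype means correlated between 0.11 and 0.25 for the 3 same-numbered pairs of *hrde-2* and *hrde-1* libraries. The 6 others lay between -0.18 and 0.06. The deviations of a genotype cancel out for each gene, so high same-numbered values draw the others down. The contrast is therefore not separate evidence. With wild-type, same-numbered pairs lay between -0.25 and 0.20 and differently numbered pairs between -0.40 and 0.39, so a pairing was not established. A replicate block was fitted over all libraries and, added after the data were seen, over the 6 mutant libraries. Other alternatives were DESeq2 1.42.0 (size factors and Wald test), library size alone, ribosomal RNA genes removed, other filters, fits of 6 libraries, an adjusted p under 0.01 and leaving out each library.

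The genes and the lists beside them were chosen with earlier results of these data known. Named were all 10 genes, the called genes of each list (the 4 with the smallest adjusted p where there were more) or else the 2 most abundant, and the 6 genes most like the mean profile. The names *mig-22*, *sqv-5*, *gna-2*, *cdk-1*, *med-1* and *hlh-27* were added once values were known.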

Additional observations from a re-analysis of the deposited data

Results flagged for a closer look

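The direct test of *hrde-2* against *hrde-1* mutants, by edgeR with adjustment over all genes tested, passed for 1 of the 10 eggshell and egg activation genes, 6 sperm markers and 4 markers of adult soma. It passed for 5.67% of all genes. The sperm markers numbered 14 without wild-type replicate 1 and 11 with DESeq2, and the soma markers 4 and 5. Without that library 12.9% of all genes were called. In the fit of the 6 mutant libraries with the replicate number as a block, 5 of the 10 genes, 14 sperm markers and 7 soma markers passed. That fit was added after the data were seen and called 16.6% of all genes. *perm-2* had a log2 fold change of -0.85. Its level was lower in all 3 *hrde-2* libraries than in all 3 *hrde-1* libraries. The libraries of the 2 mutants did not overlap, in either direction, for 32.5% of all genes. Of the sperm markers with the smallest adjusted p, *gsp-4* had 1.72, *msp-142* had 1.80, *spe-11* had 1.87 and *msp-38* had 1.68. *msp-142* and *msp-38* belong to a family of nearly identical genes, so their single values are uncertain. Among the soma markers, the yolk protein genes *vit-5*, *vit-2*, *vit-6* and *vit-4* had -1.16, -1.14, -1.03 and -0.88. Whether the sperm and yolk genes and *perm-2* moved for a shared reason was not tested.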

How the results depend on the processing

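No log2 fold change of the 10 genes changed sign while called, but only *perm-2* was called with all 9 libraries. Of the 30 log2 fold changes, 21 kept one direction in all alternatives, and the rest, none of them called with all 9 libraries, did not. Of 520 recomputed values, most of them never called, 490 kept their side of the threshold, 19 lost and 11 gained a call. All 19 losses were of *perm-2*. It kept its call in 4 of 17 alternatives against wild-type and in 12 of 18 against *hrde-1* mutants. The count of genes lower in *hrde-2* mutants against wild-type was 0 with DESeq2 size factors, library size alone, all genes with a count, genes of at least 1 CPM, only the 6 libraries compared, or an adjusted p under 0.01. In *hrde-2* against *hrde-1* mutants it was 2 with only the 6 libraries compared (*perm-4* at an edgeR adjusted p of 0.0312), 0 under 0.01, and 5 with the replicate block when the 6 mutant libraries were fitted alone, an alternative chosen after seeing the data. In *hrde-1* mutants against wild-type, 2 were higher with all genes with a count (*cbd-1* and *chs-1*). Leaving out 1 library gave 0 to 2 lower in *hrde-2* mutants against wild-type, 0 to 2 lower in *hrde-2* against *hrde-1*, and 0 to 1 higher and 0 to 1 lower in *hrde-1* mutants against wild-type; the highest counts came without wild-type replicate 1. Medians then ranged from -0.32 to 0.32, from -0.52 to -0.32 and from 0.19 to 0.61. With the replicate block over all 9 libraries, *perm-2* had -0.68 against wild-type (edgeR adjusted p = 0.0414), and no call of the 10 genes changed. Over all genes, *hrde-1* mutants against wild-type had 150 higher and 38 lower, but 767 and 891 without wild-type replicate 1. DESeq2 called 411 and 156. *hrde-2* mutants against wild-type had 919 and 516, but 1682 and 1115 without wild-type replicate 1, and 1247 and 693 with DESeq2. *hrde-2* against *hrde-1* mutants had 391 and 297, but 1032 and 585 without wild-type replicate 1, 652 and 495 with DESeq2, 835 and 558 with only the 6 libraries compared, and 1057 and 900 with these and the block.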
